A study of Mus musculus with 30 samples.

Results

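The genes described here are 42 interferon-stimulated genes, named one by one and found by symbol among the 48795 genes of the deposited tables, and 41 of them were among the 16844 genes with enough reads to test. All 42 were found. The rule for choosing them was a list of names, with no cut on a value measured in these libraries. The list and the tests were, however, chosen with earlier results of these data known. The choice was therefore not independent of the levels described below. Oas3 was the member left untested. Members were grouped by what their proteins do: 10 sense or act on RNA, 4 are transcription factors, 13 are antiviral effectors, 7 belong to ubiquitin-like and ADP-ribosylation systems, 5 are interferon-inducible GTPases and 3 have other roles.

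The samples were endothelial cells taken directly from mouse brain, the cells that line its blood vessels and form the blood-brain barrier, at 2, 6, 12, 18 and 24 months of age. All mice were WT by genotype and had no treatment, and each age had 6 libraries, 3 male (replicates 1 to 3) and 3 female (replicates 4 to 6), with replicates numbered in order of deposit. Total RNA was turned into full-length cDNA with a SMART-Seq v4 low-input kit and into libraries with Nextera XT, which keeps no strand. The sources used here give neither how the cells were isolated nor whether a library held cells of 1 mouse or of a pool.

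Interferons are secreted proteins that cells release when they sense viral nucleic acid. Type I interferons act through the receptor chains Ifnar1 and Ifnar2 and form a complex that includes Stat2 and Irf9 and binds interferon-stimulated response elements (ISRE), while interferon gamma acts through gamma-activated sites (GAS). The genes switched on in this way include sensors that feed back on the response, effectors that block viral entry, translation or replication, and GTPases that attack membranes around intracellular microbes. Brain endothelium meets such signals from the blood and from the brain, and it expresses receptors for both interferon types.

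Levels are given as CPM, counts per 1000000 reads in tested genes, with library sizes scaled by TMM. Each library held between 24140980 and 50464366 reads in genes. Before that scaling, a count of 3 reads stood at 0.0594 to 0.124 per 1000000 reads in genes, close to its place in CPM. Summed levels of 10 endothelial markers ranged from 16799 to 23142 CPM over the 30 libraries, so the labelled cell type was present throughout. Because these are bulk samples, fewer cells of a type and less RNA per cell cannot be told apart. The p-values measure the spread between these libraries.

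The 5 GTPases and Isg15 stood out in single libraries and passed no test over age, while Ifih1 rose with age. The stretches before the starts of these 7 members are shown as picked examples, which do not stand for all members. Each is the 120 bases before the annotated start in RefSeq for GRCm38.p6, 5′ to 3′ on the gene's strand. Capitals mark the ISRE letters, which are GAAA and GAAA with any 2 bases between them or, on the other strand, TTTC and TTTC with any 2 bases between them, and the GAS letters, which are TTC and GAA with any 3 bases between them and read the same on both strands; overlapping matches were counted apart.
Igtp (chr11:58199436-58199555, plus strand): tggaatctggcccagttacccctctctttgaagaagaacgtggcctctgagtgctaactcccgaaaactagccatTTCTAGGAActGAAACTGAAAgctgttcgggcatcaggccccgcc
Irgm1 (chr11:48871421-48871540, minus strand): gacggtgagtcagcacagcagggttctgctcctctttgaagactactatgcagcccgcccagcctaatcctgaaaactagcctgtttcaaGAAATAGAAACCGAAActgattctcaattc
Gbp2 (chr3:142620543-142620662, plus strand): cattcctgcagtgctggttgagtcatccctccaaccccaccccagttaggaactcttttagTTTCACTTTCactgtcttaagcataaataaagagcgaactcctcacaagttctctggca
Gbp3 (chr3:142559924-142560043, plus strand): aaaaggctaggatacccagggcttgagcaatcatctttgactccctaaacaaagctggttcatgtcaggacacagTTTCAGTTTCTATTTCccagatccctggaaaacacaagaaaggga
Gbp7 (chr3:142530216-142530335, plus strand): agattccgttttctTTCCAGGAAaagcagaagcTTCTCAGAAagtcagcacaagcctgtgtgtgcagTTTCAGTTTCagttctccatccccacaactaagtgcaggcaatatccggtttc
Isg15 (chr4:156200819-156200938, minus strand): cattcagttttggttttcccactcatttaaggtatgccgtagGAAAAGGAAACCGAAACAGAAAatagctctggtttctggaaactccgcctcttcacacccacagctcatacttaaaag
Ifih1 (chr2:62646256-62646375, minus strand): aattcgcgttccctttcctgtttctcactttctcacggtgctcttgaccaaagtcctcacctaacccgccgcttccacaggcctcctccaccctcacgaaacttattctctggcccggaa

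The Igtp stretch held the GAS letters just ahead of the ISRE letters, and the Gbp7 stretch held a pair of GAS matches, while the Ifih1 stretch held neither motif. For Gbp3 the first of 2 annotated starts is shown. In the 250 bases before the start, promoters of 34 members could be matched, and 14 of these 34 held ISRE letters. By promoter this was 35.0% of the 40 member promoters, against 2.98% of all 32851 promoters of the table. GAS letters stood in 20.0% of member promoters, against 7.02% of all promoters. Among other members flagged below in 6 months replicate 4 or 24 months replicate 2, Bst2, Ifit1 and Ifit3 held ISRE letters. Irf1, Irf7, Irf9, Oasl2 and Xaf1, flagged there too, held none, nor did Ifit2, which rose with age. Whether the letters go with either pattern was not tested. In all 5 GTPases the last ISRE match began between 24 and 59 bases before the start. These matches describe letters in a window and no binding was measured. Promoters of Oas2, Parp9, Usp18, Zbp1, Mx2, Mx1, Rtp4 and Parp14 were not matched.

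Members differed widely in level per length of transcript. Ifitm3, which blocks viral fusion with endosomes, had the highest level at 1311 CPM per kb of exon averaged over the 30 libraries. Bst2, which tethers budding virus to the cell surface, followed at 171 CPM per kb, and Ifitm2, a relative of Ifitm3, at 127 CPM per kb. The 3 lowest were Mx2 at 2.35 CPM per kb, Mx1 at 0.0592 CPM per kb and Oas3 at 0.0142 CPM per kb, the last with 109 reads in all 30 libraries together. Oas2 had 8.53 CPM per kb. The exons of Ifitm2 overlap those of Gm45717, a gene on the same strand, over 40.9% of their length. Reads in that stretch cannot be assigned to either gene and fall among the ambiguous ones left out, so the Ifitm2 level per kb may be too low.

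Over the 22 months from 2 to 24 months, 3 of the 41 tested members rose and 1 fell. The rising members were Oas2, Ifih1 and Ifit2, and the falling one was Ifi35. Beside this, 5.72% of all genes tested rose and 5.22% fell. The test was edgeR's quasi-likelihood test of a straight slope on age with sex as a covariate, adjusted by Benjamini-Hochberg over all genes tested. The median slope of the members was 0.08 on the log2 scale, against 0.03 for all genes tested, and 25 of the 41 members lay above 0. By role the median slope was 0.19 for the RNA sensors, 0.17 for the transcription factors, -0.06 for the effectors, 0.26 for the ubiquitin-like and ADP-ribosylation genes, -0.06 for the GTPases and -0.15 for the other members.

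**Figure D1:**
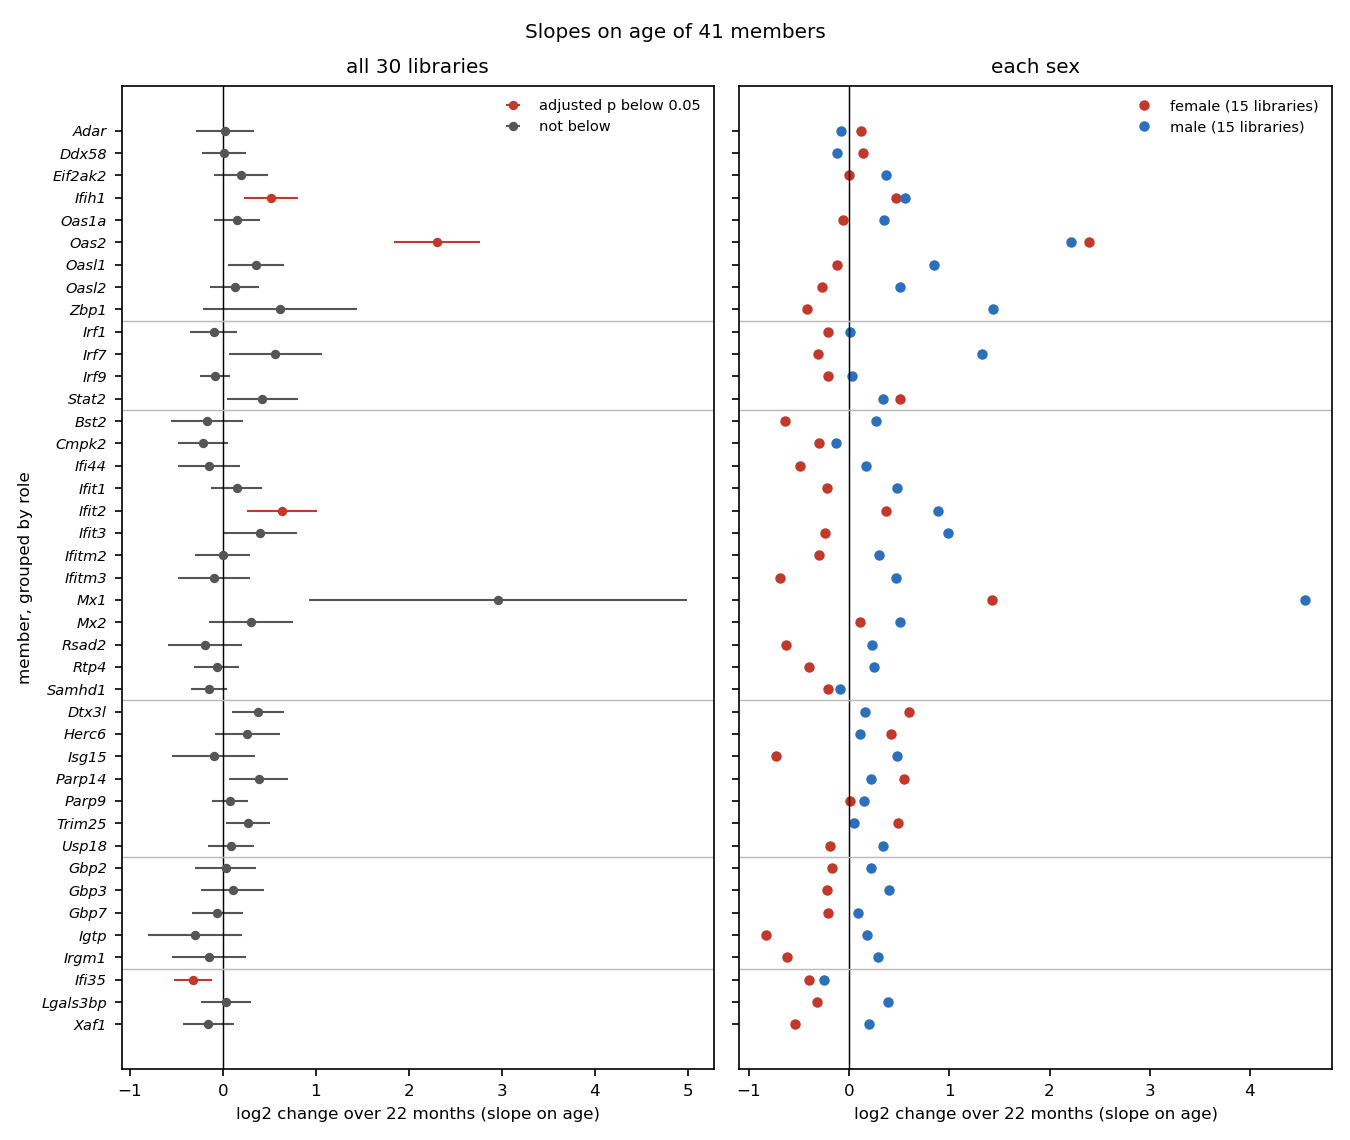
Slope on age of each of the 41 tested members as log2 change over 22 months, grouped by role, with points for estimates. The left panel uses all 30 libraries with 95% intervals as bars and the right panel gives female and male libraries fitted alone; Oas2, at 2.31, stands far to the right of most members, and Mx1 has the widest interval.

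Oas2 makes the short adenylate chains that switch on RNase L after it binds double-stranded RNA. The lowest, median and highest of its 6 libraries were 9.28, 12.6 and 20.0 CPM at 2 months, 10.5, 22.1 and 32.1 CPM at 6 months, 18.4, 32.7 and 37.2 CPM at 12 months, 39.3, 67.1 and 80.0 CPM at 18 months, and 58.8, 60.8 and 64.9 CPM at 24 months. Every library of 18 and 24 months thus lay above every younger one, although the nearest pair, 39.3 and 37.2 CPM, were close. By the mean it stood at 61.1 ± 2.15 CPM in the 24-month libraries and 13.8 ± 3.96 CPM in the 2-month ones (SD, n = 6 each). Its slope was 2.31 ± 0.23 (log2 over 22 months, SE; edgeR adjusted p = 4.63e-08). Set against 2 months, the change was 0.67 ± 0.22 at 6 months (edgeR adjusted p = 0.0581), 1.14 ± 0.22 at 12 months (adjusted p = 0.0034), 2.19 ± 0.23 at 18 months (adjusted p = 1.45e-07) and 2.16 ± 0.23 at 24 months (adjusted p = 1.86e-07). The departure from a straight line did not pass the test (edgeR adjusted p = 0.0943). The gene lies on chromosome 5 at 120730333 to 120749853, minus strand (GRCm38, GENCODE M21). Of its nearest tested neighbours Rasal1, Dtx1, Oas1c and Oas1b, none passed the slope test.

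**Figure D2:**
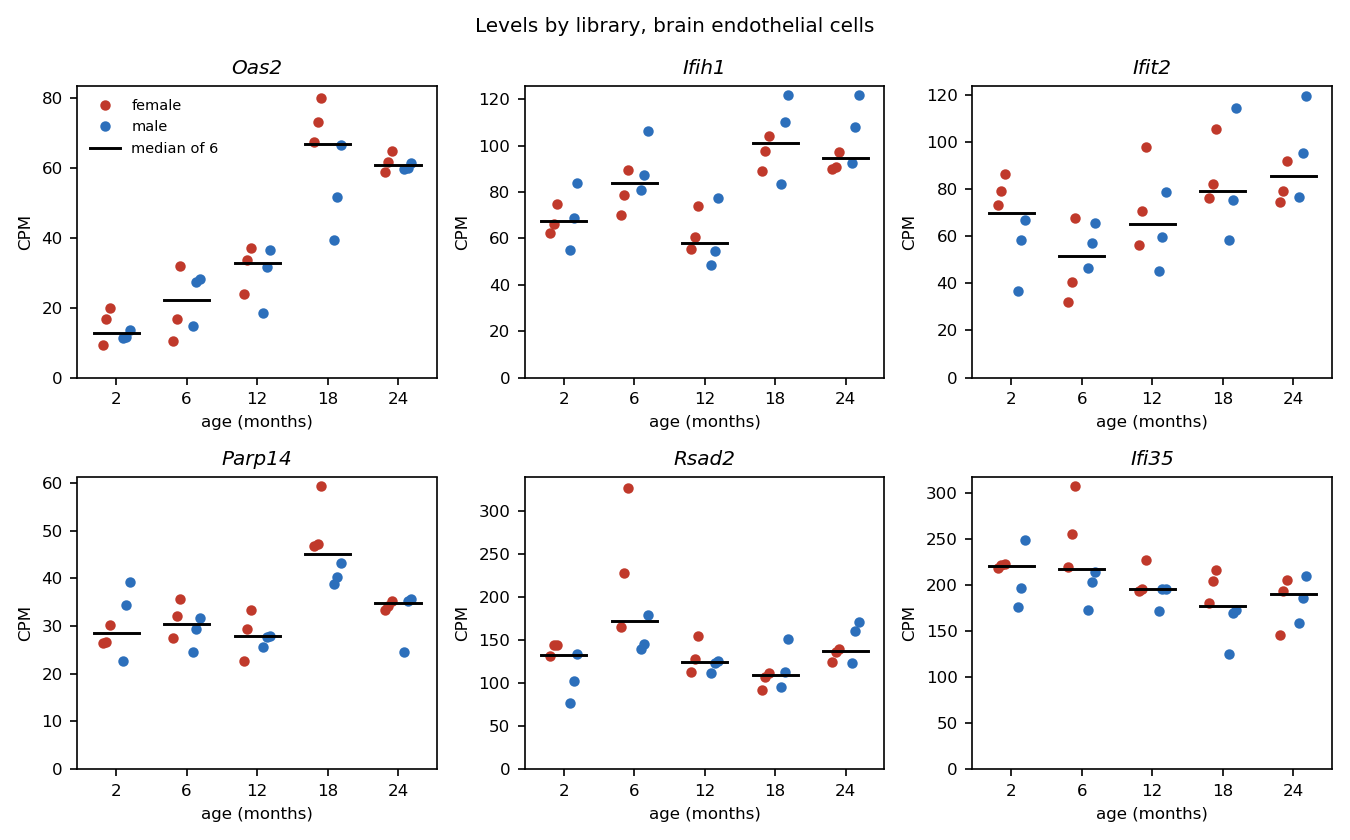
Level in CPM (vertical axis, linear) against age in months for Oas2, Ifih1, Ifit2, Parp14, Rsad2 and Ifi35, 1 panel each. Each point is a library, coloured by sex, and bars are the medians of 6 libraries; the Oas2 medians climb to 67.1 CPM at 18 months, Parp14 stands highest at 18 months and Rsad2 at 6 months.

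Among the RNA sensors all 9 tested members had slopes above 0, and 2 of them passed the test. Ifih1 encodes MDA5, a cytosolic sensor of long double-stranded RNA. It ranged from 54.9 through a median of 67.5 to 84.0 CPM at 2 months, from 70.0 through 84.1 to 106 CPM at 6 months, from 48.5 through 58.2 to 77.4 CPM at 12 months, from 83.3 through 101 to 122 CPM at 18 months, and from 89.8 through 94.9 to 121.9 CPM at 24 months. The 24-month libraries all lay above the 2-month ones, whereas the 12-month libraries were the lowest of the 5 ages by median. Ifih1 rose by a slope of 0.52 ± 0.14 (edgeR adjusted p = 0.0169) and was higher at 24 than at 2 months by 0.54 ± 0.12 (adjusted p = 0.0038). It departed from a straight line (edgeR adjusted p = 0.00409). With the share of reads outside genes as a covariate the Ifih1 slope was 0.44 and no longer passed (adjusted p = 0.206). On chromosome 2, where Ifih1 spans 62595798 to 62646255, the next tested genes toward higher coordinates, Gca and Kcnh7, rose as well (slopes 1.54 and 2.24), while Dpp4 and Fap on the other side did not pass.

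Other sensors moved at single ages. Eif2ak2, the kinase PKR that halts translation on binding double-stranded RNA, had 35.6 to 57.7 CPM at 18 months and 32.2 to 43.1 CPM at 2 months, groups that overlapped. Its change at 18 months was 0.35 ± 0.13 (edgeR adjusted p = 0.0486), a call that was lost in 20 of the 30 fits that left out 1 library. Adar, which edits adenosine to inosine in double-stranded RNA, had medians of 67.0, 46.7, 57.2, 70.5 and 51.7 CPM from 2 to 24 months, lowest at 6 months. The antisense gene Chrnb2 overlaps 16.8% of the exons of Adar. The departure of Adar from a line passed (edgeR adjusted p = 0.0258), a call lost in 4 fits that left out 1 library. Oasl2, an antiviral relative of the oligoadenylate synthetases, departed likewise (adjusted p = 0.0254), with medians of 273, 287, 228, 262 and 296 CPM.

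The remaining sensors passed no test in all 30 libraries. Ddx58, which encodes RIG-I, had medians of 103, 75.5, 87.9, 99.5 and 93.0 CPM from 2 to 24 months and a slope of 0.01. Zbp1, a sensor of Z-form nucleic acid that can start necroptosis, had a slope of 0.62 with a 95% interval of -0.21 to 1.44. Without 6 months replicate 4 the Zbp1 slope was 0.92 and passed (edgeR adjusted p = 0.0469). That fit kept 24 months replicate 2, which had 36.8 CPM of Zbp1 where the median of that age was 8.31 CPM. Oasl1, which limits Irf7 translation in mice, had a slope of 0.36 with an interval of 0.06 to 0.65, and Oas1a had 0.15. With the long-gene share as a covariate, the share of counts taken by genes with more exon sequence than the median gene, the Oasl1 slope was 0.50 and passed (edgeR adjusted p = 0.0148).

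With all 30 libraries the 4 transcription factors passed no slope test and no contrast with 2 months. Stat2, a signal carrier of type I interferon, had medians of 162, 128, 144, 197 and 170 CPM from 2 to 24 months and a slope of 0.42 (95% interval 0.04 to 0.81). Irf9, which gives the complex its DNA contact, had a slope of -0.09. Irf1, a factor induced strongly by interferon gamma, departed from a line (edgeR adjusted p = 0.045) with its highest median, 252 CPM, at 6 months and 199 CPM at 18 months, a call lost in 17 fits that left out 1 library. Irf7, which amplifies type I interferon production, ranged from 236 through 279 to 1074 CPM at 24 months and from 193 through 229 to 302 CPM at 2 months. Its slope of 0.56 ± 0.25 did not pass (edgeR adjusted p = 0.141). It passed with the share of reads outside genes as a covariate, at 1.01 (edgeR adjusted p = 0.0124), and with the long-gene share, at 0.74 (adjusted p = 0.0306).

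Of the 13 antiviral effectors 1 rose and none fell over age by the straight slope. Ifit2 binds translation initiation factors and blocks viral protein synthesis. Its lowest, median and highest libraries were 37.0, 70.1 and 86.6 CPM at 2 months, 32.2, 51.8 and 67.9 CPM at 6 months, 45.1, 65.3 and 98.0 CPM at 12 months, 58.6, 79.2 and 114 CPM at 18 months, and 74.5, 85.4 and 119.5 CPM at 24 months. Neighbouring ages overlapped throughout, as did 24 and 2 months. The Ifit2 slope was 0.63 ± 0.18 (edgeR adjusted p = 0.0241). Without 24 months replicate 2 it was 0.55 and the call was lost. With the share of reads outside genes as a covariate it was 0.76 (edgeR adjusted p = 0.0636) and with the long-gene share 0.51 (adjusted p = 0.066). Fitted alone it was 0.37 in females (edgeR adjusted p = 0.448) and 0.89 in males (adjusted p = 0.0559).

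Rsad2, which encodes viperin, an enzyme that makes a chain-terminating nucleotide, stood out at 6 months. It had 139, 172 and 327 CPM (lowest, median and highest) at 6 months and 76.6, 133 and 145 CPM at 2 months, so the groups overlapped at their edges. Its change at 6 months was 0.68 ± 0.17 (edgeR adjusted p = 0.0115), and it was the one member higher at 6 than at 2 months, a call made for 4.07% of all genes tested. Medians at 12, 18 and 24 months were 125, 110 and 138 CPM, and the departure from a line passed (edgeR adjusted p = 0.00551). Female libraries of 6 months averaged 240.01 ± 81.5 CPM and male ones 155 ± 21.2 CPM (SD, n = 3 each). Genes with more exon sequence than the median gene took 44.3 to 47.6% of counts in those female libraries and 51.7 to 56.1% in the male ones. With this long-gene share as a covariate the Rsad2 change was 0.47 and did not pass (edgeR adjusted p = 0.101).

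The other effectors passed no slope test with all 30 libraries. Mx1, a GTPase that traps viral nucleoprotein, had the steepest fitted slope of all members, 2.96 ± 0.997, and missed the threshold (edgeR adjusted p = 0.0506). Its libraries held 0.105 to 1.11 CPM at 24 months and 0 to 0.373 CPM at 2 months, close to the level of a few reads. DESeq2 called it (slope 3.01, adjusted p = 0.0431). In edgeR it was called in 8 alternatives: without the 2-month or the 12-month libraries, and without 2 months replicate 3 or 6, 12 months replicate 5 or 6, or 24 months replicate 1 or 5. The remaining 10 uncalled effectors, other than Rsad2, had slopes from -0.22 in Cmpk2, a mitochondrial nucleotide kinase, to 0.40 in Ifit3, a partner of Ifit2. The Ifit3 slope was 0.80 and passed with the share of reads outside genes as a covariate (edgeR adjusted p = 0.017). Ifit1, which binds capped viral RNA lacking methyl marks, had medians of 284, 236, 242, 275 and 238 CPM from 2 to 24 months.

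Among the ubiquitin-like and ADP-ribosylation genes none passed the straight slope, and 2 were higher at 18 than at 2 months. Over all members 5 were higher at 18 months (Oas2, Ifih1, Parp14, Dtx3l and Eif2ak2), beside 10.1% of all genes tested. Parp14, which adds ADP-ribose to proteins and modulates interferon transcription, had 38.9, 45.1 and 59.3 CPM (lowest, median and highest) at 18 months and 22.6, 28.5 and 39.2 CPM at 2 months. The groups met only at their edges, where the lowest 18-month library lay just under the highest 2-month one. Medians at 6, 12 and 24 months were 30.5, 27.9 and 34.8 CPM. The change of Parp14 at 18 months was 0.61 ± 0.13 (edgeR adjusted p = 0.00122) and at 24 months 0.14 ± 0.13 (adjusted p = 0.582).

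Dtx3l, a ubiquitin ligase that works with Parp9, had 39.6 to 65.7 CPM at 18 months and 32.3 to 47.3 CPM at 2 months. Its change was 0.43 ± 0.13 (edgeR adjusted p = 0.0193), and its median of 44.1 CPM at 24 months lay between. The call was lost without 2 months replicate 4, 18 months replicate 4 or 18 months replicate 5, when the change was at lowest 0.38. Parp9 shares 9.4% of its exon length with Dtx3l on the opposite strand, so these reads are uncertain, and it had a slope of 0.08. Herc6, the ligase that attaches Isg15 in mice, departed from a line (edgeR adjusted p = 0.039) with its highest median, 31.4 CPM, at 18 months, a call lost in 15 fits that left out 1 library. Isg15 itself, the ubiquitin-like modifier, had medians of 73.3, 99.6, 63.7, 77.8 and 68.5 CPM from 2 to 24 months and a slope of -0.10. Usp18, which removes Isg15 and damps the receptor, had a slope of 0.09, and Trim25, which activates RIG-I, had 0.27 (95% interval 0.03 to 0.50; adjusted p = 0.137).

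The 18-month libraries also differed in make-up, though not in every respect from every age. Their share of counts in long genes was 58.8 to 61.1% in female and 55.0 to 57.2% in male libraries. The female range lay above every library of the other ages, while the male range overlapped that of males at each other age. Reads outside genes made up 7.99 to 13.1% of all reads at 18 months against 3.82 to 6.61% at 2 months and 4.62 to 9.09% at 24 months. With the share outside genes as a covariate, the changes at 18 months were 0.51 for Parp14 (edgeR adjusted p = 0.324), 0.11 for Dtx3l (adjusted p = 0.907), 0.55 for Eif2ak2 (adjusted p = 0.233) and 0.73 for Ifih1 (adjusted p = 0.0622). Oas2 kept its call there and under every alternative run. With the long-gene share as a covariate the changes were 0.57 for Parp14 (edgeR adjusted p = 0.0042), 0.44 for Ifih1 (adjusted p = 0.00955) and 0.44 for Eif2ak2 (adjusted p = 0.0187), which kept their calls, and 0.20 for Dtx3l (adjusted p = 0.171), which did not. Which of the calls at 18 months held thus differed between these covariates. The share outside genes did not overlap between 18 and 2 months, so that covariate and this contrast are hard to tell apart. A call lost with it need not mean a smaller change: without it the changes were 0.35 for Eif2ak2 and 0.56 for Ifih1.

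None of the 5 interferon-inducible GTPases passed the slope test, a contrast with 2 months or the departure from a line. Fitted by sex, their slopes lay below 0 in females (-0.83 to -0.17) and above 0 in males (0.09 to 0.40), none passing. With both sexes together the slopes were -0.30 for Igtp, -0.15 for Irgm1, -0.06 for Gbp7, 0.03 for Gbp2 and 0.10 for Gbp3. Their 95% intervals all lay within 1 log2 unit of 0, the widest being that of Igtp at -0.80 to 0.20. Igtp (Irgm3) and Irgm1 guard host membranes, and the guanylate-binding proteins Gbp2, Gbp3 and Gbp7 coat and disrupt vacuoles of intracellular microbes. Gbp3 had medians of 268, 257, 274, 265 and 271 CPM from 2 to 24 months, the steadiest medians of the 5.

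Of the 3 other members, Ifi35 fell. Ifi35, a leucine-zipper protein that binds the interferon-induced protein Nmi, had 176, 220 and 249 CPM (lowest, median and highest) at 2 months, 173, 217 and 307 CPM at 6 months, 171, 195 and 227 CPM at 12 months, 125, 176 and 216 CPM at 18 months, and 146, 190 and 209 CPM at 24 months. All ages overlapped. Its slope was -0.32 ± 0.10 (edgeR adjusted p = 0.0369), and the call was lost in 8 of 30 fits that left out 1 library, when the slope was at smallest -0.27. The antisense gene Gm11626 overlaps 16.8% of its exons. Xaf1, a promoter of apoptosis, had a slope of -0.15. Lgals3bp, a secreted galectin-3 ligand, departed from a line (edgeR adjusted p = 0.0175) with its lowest median, 252 CPM, at 12 months and 338 CPM at 24 months.

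Counts at single ages were small throughout. At 24 months 2 members, Oas2 and Ifih1, were higher than at 2 months, beside 4.86% of all genes tested, and these were also the 2 members whose 6 libraries of 24 months all lay above the 6 of 2 months, as did 3.74% of all genes. At 18 months Oas2 was the one member without overlap above 2 months (4.69% of all genes). No member lay wholly above at 6 or 12 months (1.47% and 0.986% of all genes), and none lay wholly below at 6, 12, 18 or 24 months (1.28%, 1.13%, 3.78% and 2.76%). No member was lower at 24 months by edgeR, beside 3.48% of all genes, and DESeq2 called 0. None was lower there at an unadjusted edgeR p under 0.05, beside 9.81% of all genes. At 18 months no member was lower by edgeR (8.7% of all genes) and DESeq2 called 0. At an unadjusted edgeR p under 0.05, 3 were lower (Ifi35, Ifi44 and Lgals3bp), beside 15.3% of all genes. At 12 months Oas2 alone was higher (1.38% of all genes), and none was lower by edgeR (1.56%), with 1, Ifi44, by DESeq2. At an unadjusted edgeR p under 0.05, 2 were lower there, beside 8.6% of all genes. At 6 months none was lower by edgeR (4.69%), with 2 by DESeq2 (Adar and Ddx58). At an unadjusted edgeR p under 0.05, 3 were lower there (Adar, Ddx58 and Parp9), beside 13.0% of all genes. The departure from a straight line passed for 10 members, 24.4% of those tested, beside 17.7% of all genes. Besides Oasl2, Adar, Eif2ak2, Ifih1, Irf1, Rsad2, Herc6 and Lgals3bp these were Parp14 (edgeR adjusted p = 0.00392) and Dtx3l (adjusted p = 0.038). With the long-gene share as a covariate the call was lost for 6 of the 10: Adar (edgeR adjusted p = 0.544), Herc6 (0.453), Irf1 (0.434), Dtx3l (0.363), Rsad2 (0.109) and Oasl2 (0.0557). With the share of reads outside genes it was lost for 5: Dtx3l (edgeR adjusted p = 0.39), Herc6 (0.229), Irf1 (0.145), Parp14 (0.135) and Adar (0.131). Without both 6 months replicate 4 and 24 months replicate 2 it was lost for Irf1 (edgeR adjusted p = 0.153), Dtx3l (0.0724), Adar (0.0529), Oasl2 (0.0517) and Lgals3bp (0.0509). Ifih1 and Eif2ak2 kept it in all 3 of these fits.

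The members that passed no test over age were counted last. On the slope, the departure from a line and the 4 contrasts with 2 months together, 28 of the 41 members passed none, a share near the 67.8% of all genes tested that passed none. Their slopes ran from -0.30 in Igtp to 2.96 in Mx1 with a median of 0.02. For 25 of the 28 the 95% interval of the slope lay within 1 log2 unit either way, and for 16 it lay within 0.5. The intervals of the other 3 reached beyond 1: those of Mx1 (0.93 to 4.99) and Irf7 (0.06 to 1.06) lay above 0, and that of Zbp1 included 0.

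**Figure D3:**
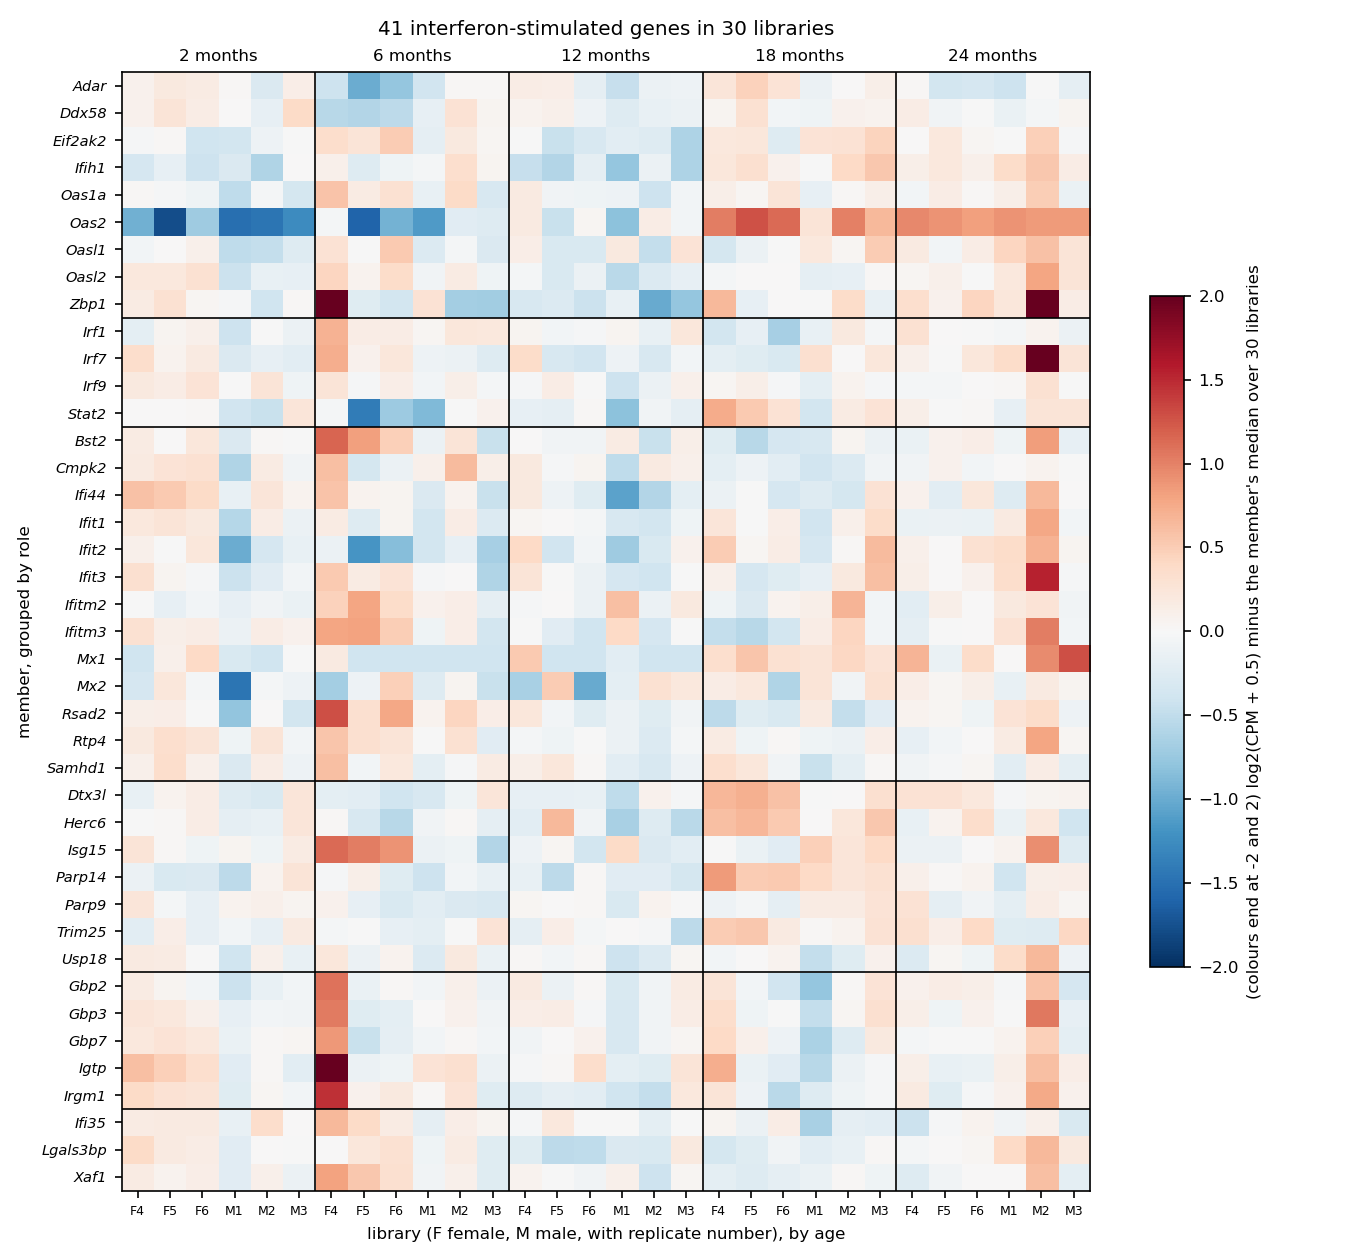
Level of the 41 tested members (down) in the 30 libraries (across, by age, females left of males within an age), as log2(CPM + 0.5) minus the member's median, with colours ending at 2 either way. Oas2 turns from low to high across the ages, while 6 months replicate 4 and 24 months replicate 2 form columns high in most members.

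Which members followed Oas2 across libraries was measured by the correlation of log2(CPM + 0.5) over all 30 libraries, computed for 16843 genes with permutation p-values adjusted by Benjamini-Hochberg over them. These libraries share the ages, so any gene that moves with age correlates with Oas2, and 10.6% of all genes passed with a positive r. Of the 40 other tested members 6 passed: Ifit2, Stat2, Dtx3l, Ifih1, Mx1 and Parp14. No member passed with a negative r, as 9.82% of all genes did, and the lowest was Ifi35 at r = -0.38. In all 24 of the 40 members had r above 0, beside 54.6% of all genes.

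Ifit2 had Pearson r = 0.65 and Spearman rho = 0.64 (permutation p = 0.00012, adjusted 0.00317). Stat2 had r = 0.65 and rho = 0.64 (permutation p = 5e-05, adjusted 0.00187). Dtx3l had r = 0.64 and rho = 0.64 (permutation p = 0.00016, adjusted 0.00378). These 3 stood at ranks 344, 371 and 395 among the 16843 genes, so genes outside the list lay closer to Oas2 than any member did. Ifih1 had r = 0.63 and rho = 0.68 (permutation p = 0.0002, adjusted 0.00425), Mx1 had r = 0.62 and rho = 0.65 (permutation p = 0.00026, adjusted 0.00492) and Parp14 had r = 0.53 and rho = 0.55 (permutation p = 0.00256, adjusted 0.0204). Without the 2 libraries farthest from the Oas2 median, replicate 5 of 2 months and replicate 5 of 6 months, r for these 6 ran from 0.57 to 0.68.

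The 5 genes closest to Oas2 were no members: Fmo2, Ntn4, Gca, Nhsl2 and Hdac9, with r from 0.88 to 0.86 over the 30 libraries. Fmo2, a flavin monooxygenase, had r = 0.88 and rho = 0.92 (permutation p = 1e-05, the smallest that 100000 permutations can give, adjusted 0.000864) and a slope of 1.38. Without the 2 farthest libraries r was 0.90 for Fmo2.

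The same correlation was taken within groups of the same age and sex. After the mean of each age-and-sex group was taken out, 35 of the 40 members had r above 0 with Oas2, beside 49.8% of all genes. None passed the adjusted permutation test, positive or negative, while 0.0534% and 0.0297% of all genes did, and 8 members had an unadjusted p under 0.05 with a positive r, beside 8.0% of all genes. Stat2 had the highest residual r, 0.77 (permutation p = 0.00126, adjusted 0.116), with 0.65 without 6 months replicate 4 and 6 months replicate 5, the 2 farthest in the Oas2 residuals. Ifit2 had a residual r of 0.55 (adjusted permutation p = 0.262) and Parp14 0.15 (adjusted 0.756). Without 6 months replicate 4 and 24 months replicate 2, more members had a residual r below 0. It then fell from 0.46 to 0.02 in Igtp and from 0.16 to -0.57 in Zbp1. In Stat2 it was 0.69, and in Oasl2 it rose from 0.51 to 0.61.

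**Figure D4:**
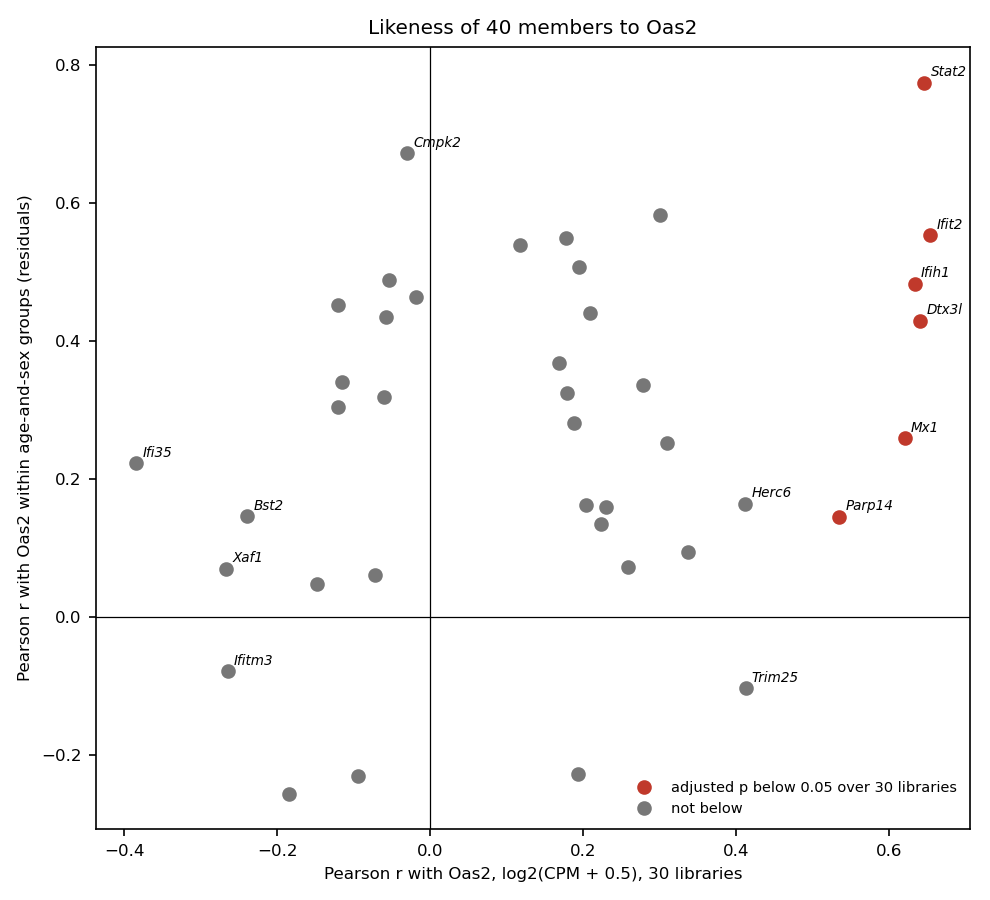
Pearson r with Oas2 of log2(CPM + 0.5) for 40 members, over all 30 libraries (horizontal axis) and for residuals within age-and-sex groups (vertical axis). Stat2 stands highest on the vertical axis at 0.77, Parp14 lies far right and low, and most members lie above 0 on the vertical axis.

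A pair of libraries stood apart from the rest of their age for these genes. In 6 months replicate 4, a female library, 27 of the 41 members had the highest level of the 6 libraries of that age, beside 14.3% of all genes tested. In 24 months replicate 2, a male library, 30 members did, beside 20.4% of all genes. Against the median of the other 5 libraries of their age, 15 members were over 1.5-fold in the 6-month library, 17 in the 24-month library and 8 in both. Over all genes tested, 10.5% were over 1.5-fold in the 6-month library and 8.34% in the 24-month one. The other 5 libraries held both sexes, so a level shared by the females of 6 months also enters the count. Isg15, for example, averaged 145 ± 11.9 CPM in female and 59.9 ± 10.9 CPM in male libraries of 6 months (SD, n = 3 each).

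The 6-month library stood out most in the GTPases, all 5 of which were highest there, with a median of 2.21-fold. Igtp had 676.5 CPM in that library and 147 to 199 CPM in the other 5, 4.52-fold their median. Irgm1 had 652.6 CPM against 199 to 287 CPM, 2.61-fold. Gbp2 had 385.3 CPM against 164 to 195 CPM, Gbp3 had 539.6 CPM against 223 to 278 CPM, and Gbp7 had 499.6 CPM against 202 to 280 CPM. Thus no GTPase of this library overlapped the other libraries of 6 months. Zbp1 had 34.8 CPM against 4.00 to 8.42 CPM, 6.78-fold and the largest ratio there of the members with reads in the other libraries, Mx1 having none in them. Oas2 had 32.1 CPM in it, against 10.5 to 28.2 CPM.

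The 24-month library stood out in other members as well. Irf7 had 1074 CPM in it and 236 to 304 CPM in the other 5 libraries of 24 months, 3.89-fold their median. Zbp1 had 36.8 CPM against 7.19 to 9.32 CPM, 4.61-fold, and Ifit3 had 319.3 CPM against 107 to 139 CPM, 2.75-fold. Ifitm3 had 1660 CPM against 721 to 994 CPM, and Gbp3 had 549 CPM against 234 to 285 CPM. Oas2 did not share this, with 60.1 CPM inside the 58.8 to 64.9 CPM of the others, and Trim25 was 0.66-fold. All 5 GTPases were highest of their age there too, as were 11 of 13 effectors, and the GTPase median was 1.41-fold.

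**Figure D5:**
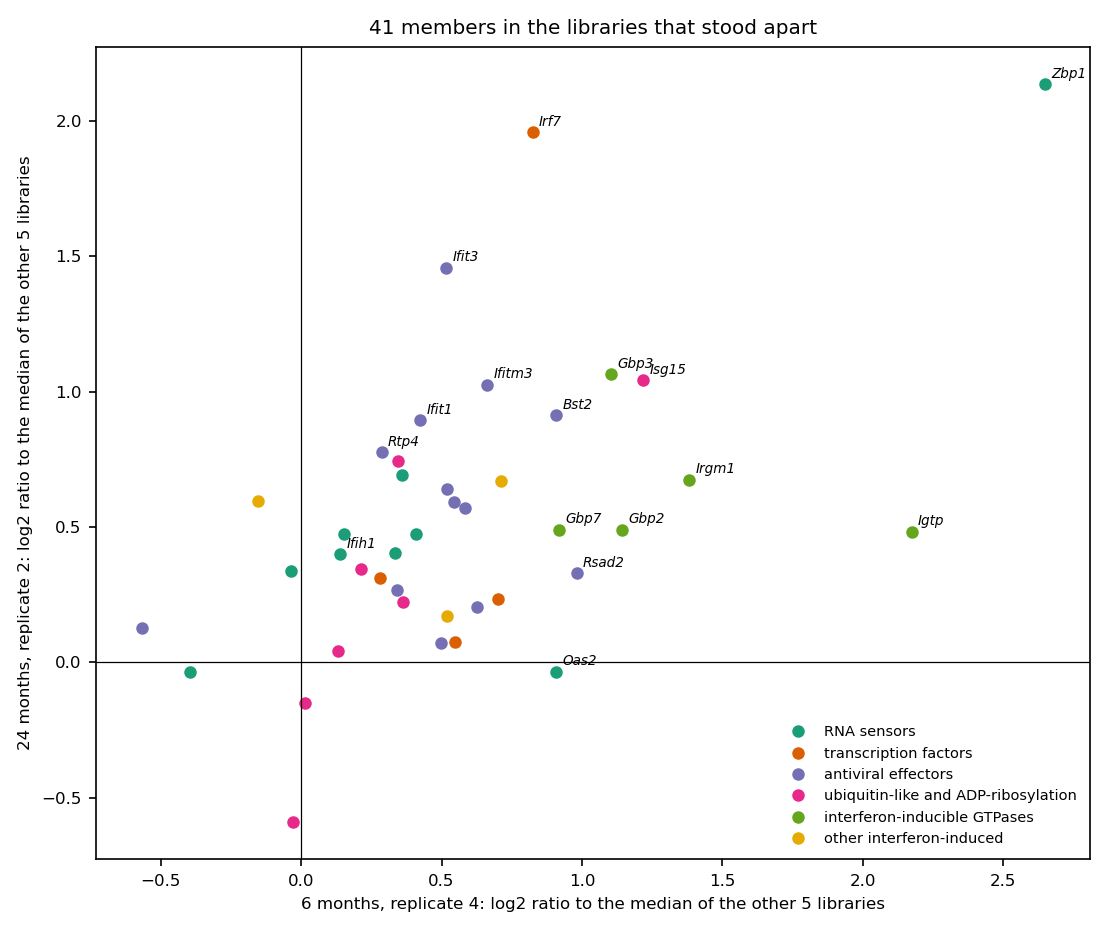
Log2 ratio of 41 members to the median of the other 5 libraries of the same age, in 6 months replicate 4 (horizontal axis) and 24 months replicate 2 (vertical axis), coloured by role. Zbp1 is high in both, at 6.78-fold and 4.61-fold, Igtp lies far right at 4.52-fold and Irf7 far up at 3.89-fold, and Oas2 lies at 0 on the vertical axis.

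Many other stimulated genes that are no members were also highest of their age in these libraries. In the 6-month library this held for 27 of 51 tested, beside 14.3% of all genes, and in the 24-month library for 29 of 51, beside 20.4%. Iigp1, a GTPase singled out after its values were seen, had 322 CPM in the 6-month library, where the median of that age was 119.6 CPM, and 288 CPM in the 24-month library, where the median was 124 CPM. Markers of other cells also differed. In 24 months replicate 2 the summed pericyte markers (1164 CPM against a median of 735 CPM in the other 5), smooth muscle markers (364 against 177 CPM) and T and NK cell markers (6.97 against 4.24 CPM) were the highest of all 30 libraries, border macrophage markers ranked 2 of 30 (11.6 against 7.48 CPM), oligodendrocyte markers 3 of 30 (679 against 329 CPM) and microglia markers 4 of 30 (587 against 449 CPM). In 6 months replicate 4 microglia markers ranked 25 of 30, T and NK cell markers 22 of 30, choroid plexus markers 7 of 30 (3486 against 880 CPM), fibroblast markers 5 of 30 (518 against 258 CPM), neutrophil markers 5 of 30 (3.76 against 0.229 CPM) and pericyte markers 4 of 30 (749 against 544 CPM). The part of these cells in the member levels was not tested. Over age, none of 14 microglia markers passed the slope test of edgeR in either direction, and their summed level was 293 to 662 CPM at 24 months and 310 to 1789 CPM at 2 months. Of other lists, 3 of 7 pericyte markers and 1 of 4 tested neutrophil markers rose by that test, and 3 of 4 choroid plexus, 2 of 7 astrocyte and 1 of 10 endothelial markers fell. What part these shifts had in the member slopes was not tested.

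Female and male libraries were compared with age as a factor. No member differed by sex by edgeR, where 0.0594% of all genes were higher and 0.0416% lower in females. At an unadjusted edgeR p under 0.05, 5 members were higher in females (Herc6, Ifi35, Ifi44, Oas1a and Samhd1), beside 2.6% of all genes. None was lower, beside 5.21%. DESeq2 was not run on sex. The difference between female and male slopes passed for no member, and for 0.0% of all genes tested in either direction. At an unadjusted p under 0.05 it differed for 18 members, all with the lower slope in females, where 2.81% of all genes did so.

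The female slope was below the male one in 33 of 41 members, beside 48.3% of all genes, with a median difference of -0.52. Median member slopes were -0.21 in females and 0.29 in males, and over all genes tested they were 0.04 and -0.003. All 13 effectors and all 5 GTPases had the lower slope in females. Because 1 of the libraries that stood apart was a young female and the other an old male, the count was repeated without both: 28 of 41 members then lay below 0, with a median of -0.22, and 9 had an unadjusted p under 0.05. The share of all genes in that fit is not given here. The long-gene share differed between the sexes at 2 of the ages. It was 44.3 to 47.6% in female and 51.7 to 56.1% in male libraries at 6 months, and 58.8 to 61.1% in female and 55.0 to 57.2% in male libraries at 18 months. At 6 months the female median was 2.22-fold the male one for Isg15, 1.92-fold for Bst2 and 1.85-fold for Ifitm3, members with 756, 903 and 678 bases of exon sequence. What part this share had in the slope differences was not tested.

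Fitted alone, female libraries gave 1 rising member (2.12% of all genes), Oas2 with a slope of 2.39 ± 0.35 (edgeR adjusted p = 0.00244), and male libraries gave 3 (0.754% of all genes). In males Oas2 had a slope of 2.22 ± 0.27 (edgeR adjusted p = 0.000399), Oasl1 0.85 ± 0.17 (adjusted p = 0.0151) and Irf7 1.33 ± 0.31 (adjusted p = 0.0421). No member fell in either sex by edgeR (1.58% of all genes in females and 0.383% in males), with 11 in females (9.88% of all genes) and 0 in males (5.64%) at an unadjusted p under 0.05. The male Irf7 means were 553 ± 451 CPM in the 24-month libraries and 203 ± 9.29 CPM in the 2-month ones (SD, n = 3 each), and its call was lost in 12 of the 15 fits that left out 1 male library, with slopes from 0.52 to 1.47. The male Oasl1 means were 36.4 ± 4.16 CPM in the 24-month libraries and 20.1 ± 1.95 CPM in the 2-month ones (SD, n = 3 each), and its call was lost without 2 months replicate 2 or 24 months replicate 2, with slopes of 0.78 to 0.90 over the 15 fits. Oas2 was thus the one member that passed the adjusted test in both sexes. Ifih1 had slopes of 0.47 in females and 0.56 in males, each at an unadjusted edgeR p under 0.05 but not passing after adjustment.

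The rest of the interferon pathway was read from the same fits. Of 104 further genes listed, 88 had enough reads, and 14 rose and 2 fell with age, beside the 5.72% and 5.22% of all genes. None of the 11 interferon genes had enough reads to test. Ifnb1 had 3 reads and Ifng 25 reads over all 30 libraries. Of the 8 tested receptor and kinase genes, Ifngr2, a chain of the interferon gamma receptor, fell by 0.37 on the log2 scale (edgeR adjusted p = 0.0169), and the type I receptor chains had slopes of 0.08 for Ifnar1 and -0.14 for Ifnar2, neither passing.

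Most of the rising pathway genes were other stimulated genes, 11 of 51 with 0 falling, beside the same shares of all genes. They included Ifi207 (3.77), Ifi211 (3.22), Ifi204 (1.67) and Ifi203 (1.34), DNA-sensing family genes that sit in a cluster of near-identical copies, so their counts are uncertain. Ifi211 stands for the list entry Mnda, which was matched to it through a RefSeq synonym. Ifi211 had 1.65 to 2.89 CPM at 24 months and 0 to 0.40 CPM at 2 months, with no overlap. Also rising were Oas1g (1.68), a relative of Oas2, and Ddx60 (1.05), a helicase. Nlrc5, which drives MHC class I genes, rose with a slope of 1.49 (edgeR adjusted p = 0.00463), and Irf5 fell with a slope of -0.62 (adjusted p = 0.0119). At 24 against 2 months 17 of the 88 were higher and 0 lower, beside 4.86% and 3.48% of all genes.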

How the data were processed

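Paired-end reads were made for 24 libraries and single-end reads of 50 bases for the other 6, per the labels' protocols; the labels do not say which, so instrument entered no model. The tools STAR 2.5.2b, HTSeq, MultiQC and FastQC 0.11.4 and the builds GRCm38 and mm10 are listed in the submitters' processing notes. The authors deposited whole-number read counts per gene, not normalized, 1 table per library with 3 count columns. The unstranded column was used: the forward one held 49.7 to 50.0% of stranded counts. Per library, 2.51 to 6.26% of reads were unmapped, 8.64 to 13.3% mapped to several places, 3.82 to 13.1% lay outside genes and 3.61 to 4.21% were ambiguous, and these 4 lines stayed out of library sizes and tests. Reads without molecular identifiers include PCR copies.

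Symbols, positions and exon lengths came from GENCODE M21 (48435 of 48795 identifiers matched) and a gene name table (48349 matched); the authors' annotation release is not stated in the sources used here. In edgeR 4.0.16 (R 4.3.3, limma 3.58.1), filterByExpr by age (at least 10 reads, 15 in total) set which genes were tested, and counts were scaled by TMM and fitted by robust quasi-likelihood over all 30 libraries, with a Benjamini-Hochberg threshold of 0.05 over 16844 genes. Models were a slope on age in months with sex, reported over 22 months; age as a factor with sex; 3 further polynomial terms jointly, for the departure from a line; sex; and sex by age. The slope, the contrast of 24 with 2 months and the correlations were tested on simulated data. CPM used the reads in tested genes as library sizes, scaled by TMM, while the level of 3 reads used all reads in genes, unscaled. Correlations used 100000 permutations in Python 3.11.15 (numpy 2.4.6, scipy 1.17.1, pandas 2.3.3), figures matplotlib 3.10.9.

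The 75 pairs of libraries of 1 age differed by 15.96 to 196.9 times the chi-square per degree of freedom that sampling gives, so none was counted as 1 sample. Alternatives were DESeq2 1.42.0, other scaling, no filter, covariates for reads outside genes and for long genes, each age, sex or library left out, and the pair of libraries that stood apart left out; the long-gene covariate, the pair left out and the fits of 1 sex without each library were added after seeing the data. The members, lists and tests were chosen with earlier results of these data known. Named were members called on a test, the 3 highest and 3 lowest per kb, those far from their age group at 6 or 24 months, and others as examples of their role. Some genes of the pathway lists are not reported here.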

Additional observations from a re-analysis of the deposited data

Results flagged for a closer look

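In each age, each tested member's highest and lowest library was set against the other 5 by Dixon's test at 95%, over 205 groups of 6 libraries. Chance flags about 1 in 20 groups, and 28 libraries of single members passed. Of these, 11 were high levels in 24 months replicate 2 (male) and 8 were high levels in 6 months replicate 4 (female).

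In 24 months replicate 2 the high members were Irf7 at 1074 CPM, Gbp3 at 549.0 CPM, Oasl2 at 457.8 CPM, Ifit1 at 431.7 CPM, Rtp4 at 391.1 CPM, Ifit3 at 319.3 CPM, Irf9 at 294.5 CPM, Bst2 at 257.7 CPM, Xaf1 at 205.1 CPM, Isg15 at 135.9 CPM and Zbp1 at 36.8 CPM. They belong to all 6 roles.

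In 6 months replicate 4 the high members were Igtp at 676.5 CPM, Irgm1 at 652.6 CPM, Gbp3 at 539.6 CPM, Gbp7 at 499.6 CPM, Gbp2 at 385.3 CPM, Irf1 at 360.6 CPM, Zbp1 at 34.8 CPM and Mx1 at 0.249 CPM. All 5 GTPases are among them, and Mx1 had no read in the other 5 libraries of that age. Zbp1 and Gbp3 were far from their age group in both libraries.

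The other 9 were spread over 7 libraries. In 12 months replicate 1 Cmpk2 was low at 150.6 CPM, Stat2 at 90.9 CPM and Parp9 at 54.0 CPM. In 12 months replicate 2 Xaf1 was low at 100.7 CPM, and in 12 months replicate 4 Mx1 was high at 0.45 CPM. Low single levels were Adar at 50.9 CPM in 2 months replicate 2, Mx2 at 2.86 CPM in 2 months replicate 1, Eif2ak2 at 35.6 CPM in 18 months replicate 6 and Parp14 at 24.6 CPM in 24 months replicate 1.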

How the results depend on the processing

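No paired analysis was possible because the labels give no replicate number that ages share. Oas2 kept its slope call and its calls at 12, 18 and 24 months under every alternative, and Ifih1 kept its call at 24 months. Rising members (3) were 1 without the 18-month libraries, 1 in females alone and 2 without the pair 6 months replicate 4 and 24 months replicate 2; the falling member (1) was lost, leaving 0, with either covariate, without the 2-, 6-, 12- or 18-month libraries, and in each sex alone. Members higher at 6 months (1) were 5 by DESeq2, 5 with reads outside genes as a covariate and 2 with the long-gene share; lower ones (0) were 2 by DESeq2 and 1 with reads outside genes. Lower at 12 months (0) were 1 by DESeq2, 2 with the long-gene share and 1 without the pair. Higher at 18 months (5) were 3 with reads outside genes and 8 with the long-gene share, which also gave 1 lower (0). Higher at 24 months (2) were 8 with reads outside genes. Members departing from a line (10) were 6 with reads outside genes, 5 without the pair, 6 without 6 months replicate 4 or 18 months replicate 5, and 7 with the long-gene share, of which Eif2ak2, Ifih1, Lgals3bp and Parp14 were among the 10, and the 6 correlated with Oas2 were 0 within age and sex. The cause of these shifts was not tested. Shares of all genes called under the same fits are not given here. The counts in this paragraph therefore do not show whether members gained or lost calls more than other genes. Leaving out 1 library gave 2 to 5 rising and 0 to 1 falling, 1 to 6 higher and 0 to 2 lower at 6 months, 1 and 0 to 1 at 12 months, 3 to 7 and 0 to 1 at 18 months, 2 and 0 at 24 months, 6 to 11 departing, 1 to 2 rising in females and 1 to 4 in males. Members with few reads, Mx1 and Oas3, are limited by depth.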
